A study of Homo sapiens with 4 samples.

Results

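The genes described here are 10 regulators of the passage from G1 to S phase: the D-type cyclins CCND1, CCND2 and CCND3, their kinases CDK4 and CDK6, the E-type cyclins CCNE1 and CCNE2 with their kinase CDK2, the phosphatase CDC25A, and SKP2. They were taken by symbol from the 60612 genes of a raw read count table, and all 10 were found. The cells were IMR-32, a human MYCN-amplified neuroblastoma line. They expressed short hairpin RNA induced by doxycycline. Of the libraries, 2 had the control hairpin (shControl) and 2 had hairpin RNA against the transcription factor NeuroD1 (shNeuroD1). All 4 libraries came from cells given doxycycline at 1 µg/mL for 48 h, so both groups had the drug. In the genotype label the shControl cells are WT, and in the series text they are parental. The labels do not name the hairpin used or say that libraries of a group were separate cultures. Library titles end in 1 or 2, as do the names of the 2 NeuroD1 hairpins in the paper. The numbers were read as replicates, but the shNeuroD1 libraries may carry different hairpins. Thus p-values measure only the spread between these libraries, which may be technical or, in shNeuroD1, between hairpins. A single cell line and bulk RNA were used, and fewer cells of a kind and less RNA per cell cannot be told apart.

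In G1, D-type cyclins bind CDK4 or CDK6, and these complexes begin the phosphorylation of the retinoblastoma protein, which releases E2F transcription factors. CCNE1 and CCNE2 then activate CDK2, which completes this phosphorylation and helps to start DNA replication. CDC25A removes inhibitory phosphates from CDK2, and SKP2 marks the CDK2 inhibitor p27 for destruction. In neuroblastoma, CCND1 is known for high expression, and several genes of the pathway are known targets of MYC proteins.

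By read counts, RNA of 8 of these genes fell after NeuroD1 knockdown, none rose, and CCND3 did not pass the test. Falls were largest in CDK2 and CCNE2 and smallest in CDK6, while CCND2 was at or near 0 counts. CCND1 and CDK4 together with CDK2, CDC25A, SKP2, CDK6, CCNE1 and CCNE2 make up the 8. The test was edgeR's quasi-likelihood F test on counts, with Benjamini-Hochberg adjustment over the 17537 genes that passed a filter on low counts, and a gene was called at an adjusted p under 0.05. 9 of the 10 genes passed this filter, and 8 of the 9 were called lower against a background of 28.2% of all genes tested. 0 of the 9 were called higher, where 26.8% of all genes were. The median log2 fold change (shNeuroD1 over shControl) of the 9 was -0.82, and that of all genes tested was 0.0084. Only CDK2 and CCNE2 also had a log2 fold change below -1, a threshold that 5.14% of all genes passed. None passed 1 upward, as 8.79% of all genes did. In 8 of the 9 genes both shNeuroD1 libraries lay below both shControl libraries, as they did in 37.7% of all genes.

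Library totals ranged from 14665210 to 16482463 counts. NEUROD1 itself was at 14.6% of its control level. Mitochondrial genes took 4.37% to 4.59% of counts in shControl and 5.39% to 5.51% in shNeuroD1, and the part of this difference in the changes below was not tested. All 8 markers of adrenergic neuroblastoma had at least 10 counts in every library, with a summed level of 1976 to 2001 CPM (counts scaled to library size by TMM) in shControl and 1586 to 1615 in shNeuroD1. Of the markers of other cell types, 3 of 6 mesenchymal, 1 of 4 Schwann cell and 0 of 4 blood cell markers reached 10 counts in every library. The summed mesenchymal level was 70.4 to 80.5 CPM in shControl and 51.3 to 53.3 in shNeuroD1, with PRRX1 at 0 throughout. Schwann cell markers summed to 5.04 to 5.16 CPM and 8.41 to 9.59 CPM, and blood cell markers to 0.378 to 0.611 CPM over all libraries, with CD3E at 0. The part of these cell types in the results was not tested.

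**Figure D1:**
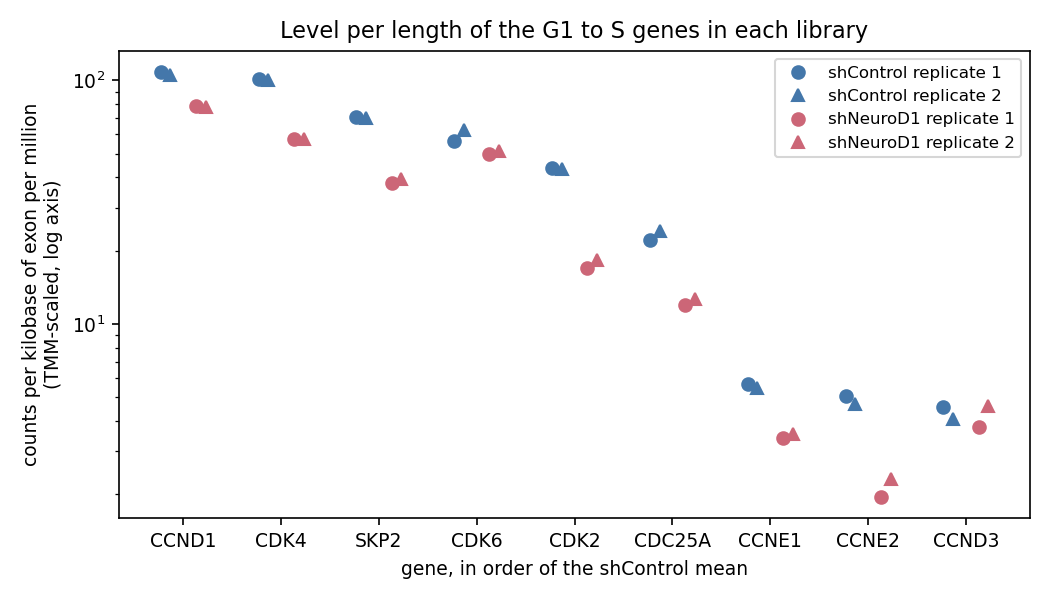
Level per length of 9 genes in each of the 4 libraries, as RPKM (TMM-scaled CPM per kilobase of exon) on a log axis. Circles are replicate 1 and triangles replicate 2. The shNeuroD1 points lie below both shControl points in every gene shown except CCND3, whose groups overlap, and CCND2 is left out because it was at 0 in 3 libraries.

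CCND1, which encodes cyclin D1, was the most abundant of the 10 per length in both groups by counts. For CCND1 (ENSG00000110092, GRCh38 chr11:69641087-69654474, plus strand) 7712 and 8057 reads were counted with the control hairpin, against 5749 and 5698 after knockdown. Both shNeuroD1 libraries lay below both shControl libraries. Mean CCND1 was 515 ± 11.2 CPM (SD, n = 2) with the control hairpin and 376 ± 2.62 CPM (SD, n = 2) with knockdown, 73.0% of control. Its log2 fold change was -0.45 (SE 0.0405, 95% interval -0.54 to -0.37, edgeR adjusted p 2.6e-11).

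A second readout deposited for each library gave CCND1 the opposite order. This was the FPKM (fragments scaled by length and by library) of transcript starts in assembled transcripts. Summed over its starts, CCND1 was at 65.1 and 58.1 FPKM in shControl and 71.4 and 68.4 in shNeuroD1. Here both shNeuroD1 libraries were the higher ones, with a log2 fold change of 0.18 on the log2(FPKM + 1) scale that did not pass the test (limma adjusted p 0.434). 1 start, in the annotated first exon, held at least 99.8% of the CCND1 start signal in every library. The direction for CCND1 therefore differed between the 2 readouts, and the cause was not tested. LTO1 lies on the opposite strand and shares 497 exon bases with CCND1. It had 334 and 335 counts against 366 and 324, and a log2 fold change of 0.05 (edgeR adjusted p 0.674).

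CCND2 and CCND3 encode the other D-type cyclins. CCND2 (ENSG00000118971, chr12:4273772-4305350, plus strand) had 0 counts in both shControl libraries and 0 and 3 in shNeuroD1, and it failed the filter. A count of 0 allows up to 3 counts, or 0.189 to 0.204 CPM in the shControl libraries, and this limit covers counting error only. CCND2 was thus not detectable in shControl at this depth, and no fold is given. Counts of CCND3 (ENSG00000112576, chr6:41934933-42050357, minus strand) were 389 and 376 for shControl, against 334 and 406 for shNeuroD1. The groups overlapped, with the lowest and the highest library both from shNeuroD1. CCND3 averaged 25.0 ± 1.92 CPM (SD, n = 2) against 24.3 ± 3.33 (SD, n = 2), and the log2 fold change was -0.04 (SE 0.0976, adjusted p 0.75 by edgeR). The 95% interval of the CCND3 change ran from -0.24 to 0.16, which does not reach the estimate for CCND1.

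CDK4, the partner of the D-type cyclins, fell in both shNeuroD1 libraries to a like level. The shControl libraries held 4737 and 5065 counts of CDK4 (ENSG00000135446, chr12:57747727-57756013, minus strand), and the shNeuroD1 libraries 2775 and 2763. The 2 groups lay far apart relative to the spread within each. Its level went from 320.2 ± 1.71 CPM (SD, n = 2) to 182 ± 0.681 CPM (SD, n = 2), or 56.8% of control. CDK4 had a log2 fold change of -0.82 (SE 0.0430, adjusted p 7.1e-17 by edgeR). Transcript starts were at 106 and 156 FPKM in shControl and 58.6 and 75.6 in shNeuroD1, without overlap. TSPAN31, on the opposite strand, shares 1369 exon bases with CDK4. It had a log2 fold change of -0.03 (edgeR adjusted p 0.847), with 329 and 361 counts against 363 and 311.

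The CDK4 promoter is shown because it was the 1 window among those of these genes with repeated copies of CACGTG, the palindromic E-box bound by MYC proteins. RefSeq windows of 300 bases, from 250 before to 50 after a start site (GRCh38.p14), were held for 6 of the 10 genes, 9 windows in all. CCND1, CCND2, CCNE2 and CDK2 had no window there. CACGTG is its own reverse complement, so both strands give the same matches. It stood in windows of CDK4 and CDK6, and in 7.26% of all 35116 windows. CDK4 held 3 copies, which begin at -216, -196 and -101 relative to the start site. At least 3 copies stood in 33 of all windows, or 0.0940%. The start site is the end of the CDK4 start event that held 92.9% to 94.9% of its start FPKM. The 250 bases before it, at chr12:57752311-57752560 on the minus strand, read as follows with the matches in capitals, and a match is a description of letters, not evidence of binding.
CDK4: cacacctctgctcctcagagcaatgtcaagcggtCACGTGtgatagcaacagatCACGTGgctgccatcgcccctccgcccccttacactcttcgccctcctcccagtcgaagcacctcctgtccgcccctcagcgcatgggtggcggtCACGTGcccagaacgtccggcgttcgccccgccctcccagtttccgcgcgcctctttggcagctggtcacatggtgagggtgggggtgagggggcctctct

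CDK6, the other kinase of the D-type cyclins, changed less than CDK4 by counts. Counts of CDK6 (ENSG00000105810, chr7:92604921-92836594, minus strand) reached 10158 and 12225 for shControl but 9337 and 9579 for shNeuroD1. The shControl libraries were further apart from each other than in the other genes called, and both still lay above shNeuroD1. CDK6 averaged 729.5 ± 57.1 CPM (SD, n = 2) with the control hairpin against 621 ± 10.8 (SD, n = 2) with knockdown. This was a log2 fold change of -0.23 (SE 0.0439, 95% interval -0.32 to -0.14, edgeR adjusted p 3.9e-05). Scaled by library size alone it was -0.12 (edgeR adjusted p 0.021), a setting under which the median of all genes was 0.12.

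The start FPKM of CDK6 gave a larger change than its counts did. The sums were 31.0 and 35.7 FPKM in shControl and 10.3 and 14.1 in shNeuroD1, without overlap. The change was -1.39 on the log2(FPKM + 1) scale. A start of 800 bases, listed at 16.7 FPKM in shControl replicate 1 and in no other library, was part of that sum. The most upstream start had 8.48 and 15.8 FPKM in shControl and 9.35 and 8.47 in shNeuroD1, and there the groups overlapped. A CDK6 window with CACGTG spans this start, with the match beginning at base 281 of its 300 bases, past the start site. AC002454.1, an antisense gene sharing 81 exon bases with CDK6, had 155 and 188 counts against 156 and 186.

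CCNE1 and CCNE2, the cyclins that activate CDK2, both fell, and CCNE2 fell beyond 1 on the log2 scale. For CCNE1 (ENSG00000105173, chr19:29811898-29824308, plus strand) the counts were 214 and 221, against 132 and 138 after knockdown. Both shNeuroD1 libraries were lower, at 62.4% of the control CPM on average. CCNE1 had a log2 fold change of -0.68 (SE 0.131, 95% interval -0.95 to -0.41, edgeR adjusted p 5.1e-05). For CCNE2 (ENSG00000175305, chr8:94879770-94896678, minus strand) they were 329 and 328, against 131 and 155. Its CPM fell to 43.7% of control, and the groups did not overlap. CCNE2 had a log2 fold change of -1.19 (SE 0.120, 95% interval -1.44 to -0.95, edgeR adjusted p 4.5e-10).

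Start FPKM of the E-type cyclins was low and differed from the counts for CCNE1. For CCNE1 it was 2.75 and 1.92 FPKM with the control hairpin and 1.82 and 2.68 after knockdown, with overlapping groups. CCNE1 had 4 starts, and the one with the highest FPKM was not the same in all libraries. CCNE2 had 5.16 and 4.56 FPKM in shControl and 1.43 and 2.01 in shNeuroD1, so its order matched the counts. The CCNE2 start with the highest FPKM was not the same in all libraries either. INTS8, opposite CCNE2 and sharing 1629 exon bases with it, had 692 and 686 counts against 685 and 723. AC087752.4, which shares 4 exon bases with CCNE2, had 11 and 15 counts against 4 and 5.

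CDK2, the kinase that the E-type cyclins activate, had the largest fall of the 9 genes tested. The control hairpin gave 2517 and 2673 counts of CDK2 (ENSG00000123374, chr12:55966769-55972784, plus strand), and the shNeuroD1 libraries 1011 and 1088. No shNeuroD1 library came near a shControl library. Its CPM was 170 ± 1.72 (SD, n = 2) against 69.0 ± 3.53 (SD, n = 2) after knockdown, or 40.7% of control. CDK2 had a log2 fold change of -1.30 (SE 0.0522, 95% interval -1.40 to -1.19, edgeR adjusted p 5.8e-20), and 3.19% of all genes tested had a lower one. Its start FPKM went from 35.9 and 47.0 to 12.5 and 13.4 in the knockdown. PMEL, on the opposite strand with 89 shared exon bases, moved the other way, from 1330 and 1322 counts to 1793 and 1757, with a log2 fold change of 0.43 (edgeR adjusted p 3.5e-08).

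CDC25A, the phosphatase that activates CDK2, fell in both shNeuroD1 libraries. Counts of CDC25A (ENSG00000164045, chr3:48157146-48188402, minus strand) were 1339 and 1571 for shControl and 752 and 794 for shNeuroD1. The groups did not overlap, and the mean level in shNeuroD1 was 53.5% of control, a log2 fold change of -0.90 (SE 0.0607, adjusted p 3.3e-14 by edgeR). Its 1 listed start was 33 bases long and ranged from 0.363 to 4.90 FPKM with overlapping groups. Transcript ends of CDC25A had 15.0 and 16.2 FPKM in shControl and 9.15 and 9.67 in shNeuroD1, again without overlap.

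The CDC25A promoter is shown because it was the only window of these genes with letters of an E2F site. TTTCCCGC, TTTGGCGC, TTTCGCGC and TTTGCCGC were searched on both strands, and 3.31% of all windows held at least 1 of them. In CDC25A the match was TTTGGCGC, beginning at -44 relative to the start site. CAGATG, an E-box of tissue-restricted bHLH factors such as NeuroD1, stood in no window of these genes and in 14.7% of all windows. The related E-box CAGCTG stood in windows of CDC25A, CDK4 and CDK6, and in 17.9% of all windows. CCAAT stood in windows of CCND3 and CDC25A on either strand, and in 34.6% of all windows. The absence of a match says only that these letters are not in these windows. The 250 bases before the CDC25A start site (GRCh38.p14, chr3:48188418-48188667, minus strand), with the E2F letters in capitals, are the following.
CDC25A: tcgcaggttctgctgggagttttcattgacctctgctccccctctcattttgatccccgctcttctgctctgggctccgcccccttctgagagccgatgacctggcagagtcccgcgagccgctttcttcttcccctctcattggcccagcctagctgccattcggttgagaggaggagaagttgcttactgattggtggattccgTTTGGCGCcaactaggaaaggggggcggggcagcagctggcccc

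SKP2, the F-box protein that recruits p27 to its ubiquitin ligase, fell to a share of control between those of CDC25A and CDK4. With the control hairpin SKP2 (ENSG00000145604, chr5:36151989-36184319, plus strand) reached 4003 and 4260 counts, and with knockdown 2220 and 2298. The shNeuroD1 libraries were both lower, and libraries of a group lay close together. SKP2 averaged 270 ± 2.34 CPM (SD, n = 2) against 148 ± 3.52 (SD, n = 2), or 55.0% of control. This was a log2 fold change of -0.86 (SE 0.0447, adjusted p 4.4e-17 by edgeR). Its start FPKM moved the same way, from 57.9 and 58.7 to 30.4 and 29.4.

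**Figure D2:**
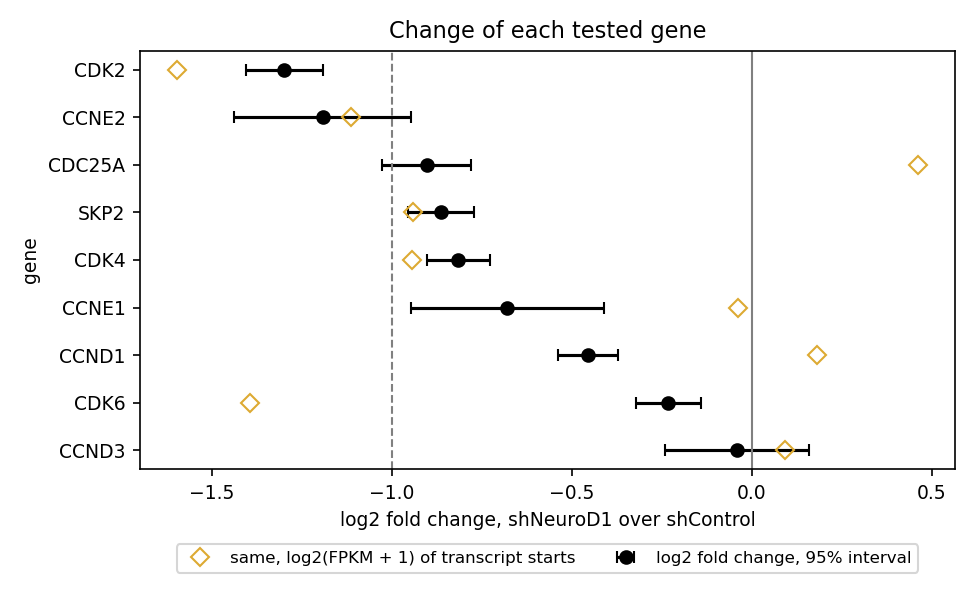
Log2 fold change of the 9 genes tested, shNeuroD1 over shControl, with 95% intervals from edgeR on counts (black), beside the change on the log2(FPKM + 1) scale of transcript starts (open diamonds). The dashed line marks -1. The diamonds lie to the right of 0 for CCND1, CCND3 and CDC25A, far to the left of the count value for CDK6, and near 0 for CCNE1.

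The fall by counts was seen under all 10 other count-based fits for each of the 8 genes, with the largest adjusted p at 0.024 (CCNE1, edgeR or DESeq2). Tests on start FPKM with limma called 3 of the 9 genes lower at a pseudocount of 1, namely CDK2, SKP2 and CDK6, where 2.43% of 10084 genes were called lower. At a pseudocount of 0.1 they called 0, where 1.19% of genes were, although all of the 9 but CCND1, CCND3 and CDC25A had values below 0.

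Per length of exon, the genes fell into an upper and a lower group in shControl. Levels are RPKM, the TMM-scaled CPM per kilobase of the union of GENCODE 29 exons. On the opposite strand, CDK4 shares 1369 exon bases with TSPAN31, and CCNE2 shares 1629 with INTS8. Shared bases were kept in the lengths, while the use of strand in counting is not known. Their part in these levels and in the shares below was not tested. Mean levels in shControl were 107 RPKM for CCND1, 101 for CDK4, 70.3 for SKP2, 59.5 for CDK6, 43.5 for CDK2 and 23.0 for CDC25A. CCNE1 was at 5.58 RPKM, CCNE2 at 4.89 and CCND3 at 4.31, near the middle of all genes tested. No neighbours in this order, or in that of shNeuroD1, had overlapping library ranges. In shNeuroD1 the means were 77.9 RPKM for CCND1, 57.4 for CDK4, 50.7 for CDK6, 38.7 for SKP2, 17.7 for CDK2 and 12.3 for CDC25A. CCND3 followed at 4.19 RPKM, CCNE1 at 3.48 and CCNE2 at 2.14, so CDK6 stood above SKP2 and CCND3 above the E-type cyclins. Only 1 gene held the same rank by start FPKM in shControl and 4 did in shNeuroD1, so the order depends on the readout.

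The shares of related genes in their sum also differed between the groups, without overlap by counts. For comparison, most single genes tested lacked overlap too, with 37.7% lower and 38.4% higher in shNeuroD1. CCND1 made up 96.0% and 96.3% of the RPKM of the D-type cyclins in shControl and 95.4% and 94.4% in shNeuroD1. Their sum was 111 RPKM in shControl and 82.1 in shNeuroD1, 73.9% of control. CDK4 made up 64.3% and 61.6% of the sum of CDK4 and CDK6 in shControl and 53.5% and 52.7% in shNeuroD1. The sum of both kinases was 161 RPKM in shControl and 108 in shNeuroD1. CCNE1 made up 52.9% and 53.7% of the E-type cyclins in shControl and 63.5% and 60.6% in shNeuroD1, while their sum went from 10.5 to 5.62 RPKM. By start FPKM the CDK4 share was higher rather than lower in shNeuroD1, at 84.7% against 79.4% in shControl, and the D-type sum was 113% of control.

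**Figure D3:**
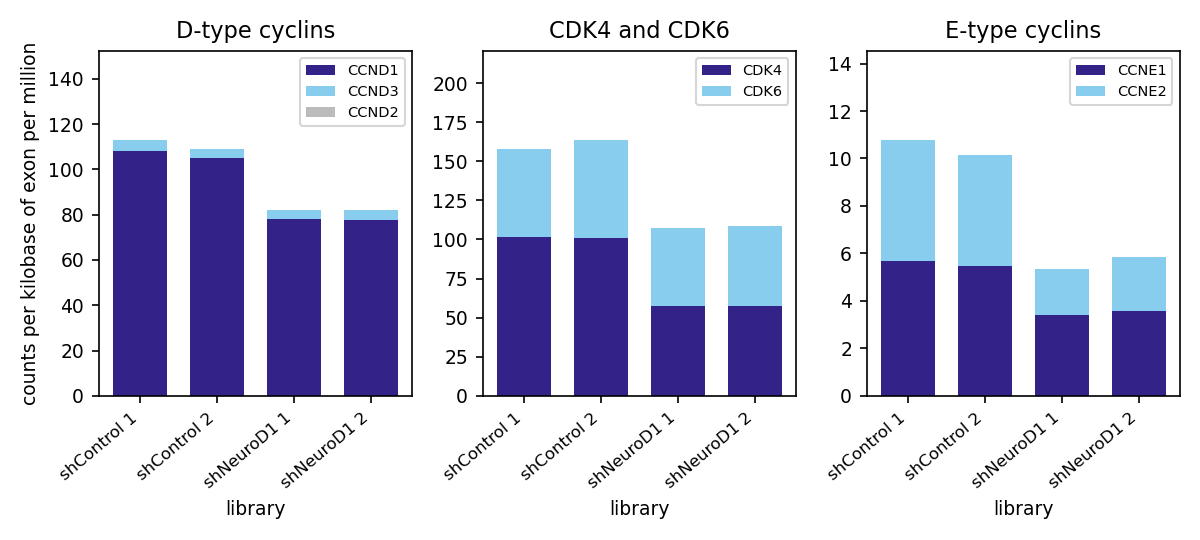
Stacked levels of the D-type cyclins, of CDK4 and CDK6, and of the E-type cyclins in each library, in RPKM (TMM-scaled CPM per kilobase of exon). CCND2 is too low to be seen. All 3 sums are lower in shNeuroD1 by counts, and the CDK4 and CCNE2 parts shrink by more than those of CDK6 and CCNE1. By start FPKM the D-type sum is higher and the CDK4 share larger in shNeuroD1.

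The log2 ratio of counts between related genes was compared over libraries, for 5 ratios. CDK6 over CDK4 went from 1.10 and 1.27 to 1.75 and 1.79, a difference of 0.59. CCND3 over CCND1 differed by 0.41, also higher in shNeuroD1, and by 0.26 without shNeuroD1 replicate 2. CCNE2 over CCNE1 went from 0.62 and 0.57 to -0.01 and 0.17, a difference of -0.52. CDK2 over CDK4 differed by -0.48, and SKP2 over CDKN1B, the gene of the p27 protein that SKP2 targets, by -0.35. None of the 5 had overlapping groups. Most single genes tested had none either, with 37.7% lower and 38.4% higher in shNeuroD1 without overlap. Such a share was not formed over ratios of other genes. CCND2 over CCND1 was planned too but was not formed, as CCND2 had 0 counts in both shControl libraries. The exact permutation test (two-sided) gave p = 0.333 for each, also after Benjamini-Hochberg adjustment, which is the smallest value that 2 against 2 libraries allow. By start FPKM the difference for CDK6 over CDK4 was -0.51 and that for CCND3 over CCND1 was -0.083, both reversed.

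The other genes of the pathway were taken from 6 lists. Of 59 genes listed, 58 were tested, 38 were called lower, 3 higher, and 17 did not pass, and the counts of each list are to be read against the 28.2% of all genes tested that were called lower and the 26.8% called higher. All 15 genes of origin licensing and S phase fell, with a median log2 fold change of -1.34. CDC6 and CDT1, which load the replicative helicase, had log2 fold changes of -1.83 and -1.49. ORC1, of the origin recognition complex, fell to 35.3% of control.

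Among the RB proteins and E2F factors, 9 of 13 fell, 0 rose and 4 did not pass, with a median of -0.49. E2F1, an activator of S phase genes, had a log2 fold change of -1.65, the atypical E2F7 and E2F8 of -1.58 each, and the RB relative RBL1 of -1.10. Of genes for the phosphorylation of CDKs, 5 of 7 fell, 0 rose and 2 did not pass (median -0.30). PKMYT1 and WEE1, kinases that inhibit CDKs, had log2 fold changes of -1.52 and -0.81, and the phosphatases CDC25C and CDC25B of -1.36 and -0.30. These include both activators and inhibitors of CDKs. Of the later cyclins and CDKs, 4 of 6 fell, 0 rose and 2 did not pass (median -0.57). They were CDK1, CCNA2, CCNB2 and CCNB1, with log2 fold changes of -1.04, -0.95, -0.66 and -0.47.

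Of 7 listed inhibitors of CDKs, 6 were tested, of which 2 fell, 2 rose and 2 did not pass. These shares are near those of all genes, at 28.2% lower and 26.8% higher. The list had a median of -0.0023 whose sign changed under other scalings. CDKN1C and CDKN2A rose, with log2 fold changes of 0.94 and 0.89, while CDKN2C and CDKN1B fell, with -0.67 and -0.51. CDKN1A, the gene of the p21 protein, had a log2 fold change of -0.04 and did not pass. Of SCF-SKP2 subunits and other ligases of G1 cyclins, 3 of 11 fell, 1 rose and 7 did not pass (median -0.099, and 0.014 when scaled by library size alone). The share that fell is near the 28.2% of all genes. CKS1B, the cofactor with which SKP2 recognises p27, had a log2 fold change of -1.04, CKS2 of -0.33 and RBX1 of -0.21. FBXO4, an F-box protein of another ligase, rose by 0.80 on the log2 scale. SKP1 and CUL1, which with RBX1 form the core of the SKP2 ligase, had log2 fold changes of -0.10 and -0.11 and did not pass.

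**Figure D4:**
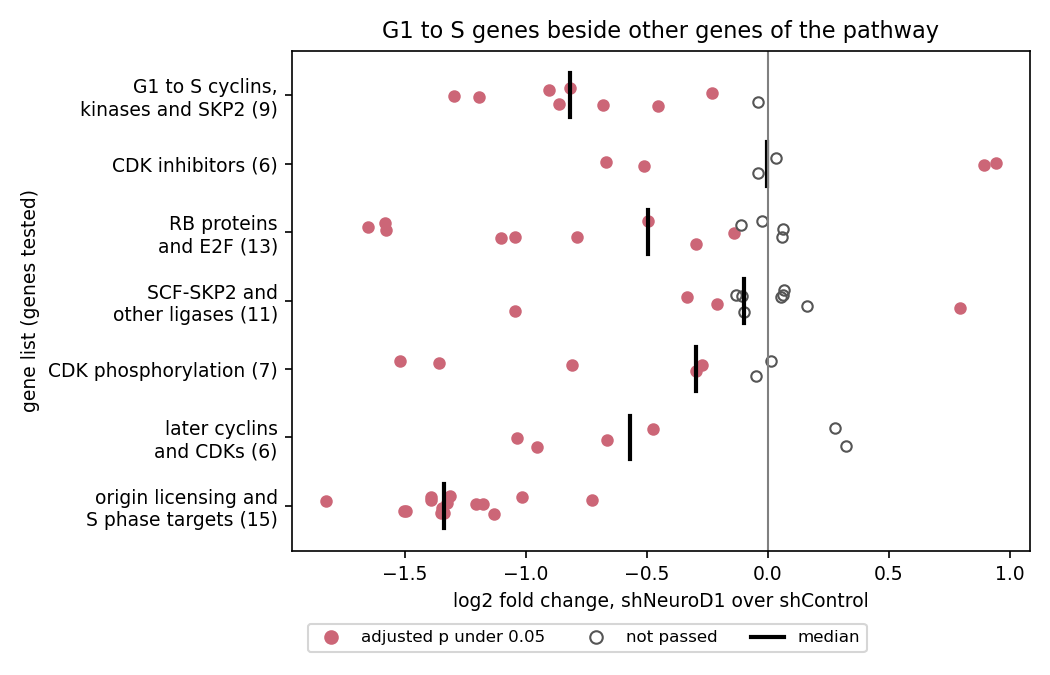
Log2 fold change (shNeuroD1 over shControl, edgeR on counts) of each tested gene in the G1 to S group and in 6 lists of the pathway, with the number tested in brackets. Filled points passed an adjusted p of 0.05, open points did not, and black bars are medians. All 15 genes of origin licensing and S phase lie left of 0, and CDK inhibitors lie on both sides.

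Transcript assembly listed 84 event positions for 9 of the 10 genes, and 1 exon of CDC25A was singled out after its values were seen. No event of these genes reached 1 FPKM in both libraries of 1 group while being unlisted in both of the other. The CDC25A exon is exon 6 (chr3:48180721-48180840, minus strand), 120 bases of coding sequence present in 2 of 5 annotated transcripts. Forms with the exon had 11.9 and 12.8 FPKM in shControl and 8.10 and 8.97 in shNeuroD1. Forms that skip it had 2.01 and 2.38 FPKM in shControl and 0.455 and 0.339 in shNeuroD1. The skipped share went from 14.5% and 15.6% to 5.32% and 3.64% after knockdown, without overlap. The difference of -10.6 percentage points was not tested, because the exon was chosen for it. Of 6306 cassette exons across all genes, each with 5 FPKM or more over both forms in every library, 7.48% were lower in shNeuroD1 by over 5 points without overlap and 5.6% were higher. Among the 8 such exons in these genes, the other one past 5 points without overlap was an exon of CCND3 (chr6:41940370-41940585). Its skipped share was 0% in both shControl libraries and 5.72% and 4.91% in shNeuroD1. The CCND3 form that skips it had only 0.398 and 0.471 FPKM in shNeuroD1. In shControl that form was not listed and was read as 0. The CDC25A exon is given so that the 2 forms can be told apart.
CDC25A exon: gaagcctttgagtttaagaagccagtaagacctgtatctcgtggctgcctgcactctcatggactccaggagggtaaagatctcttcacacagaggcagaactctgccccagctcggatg

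**Figure D5:**
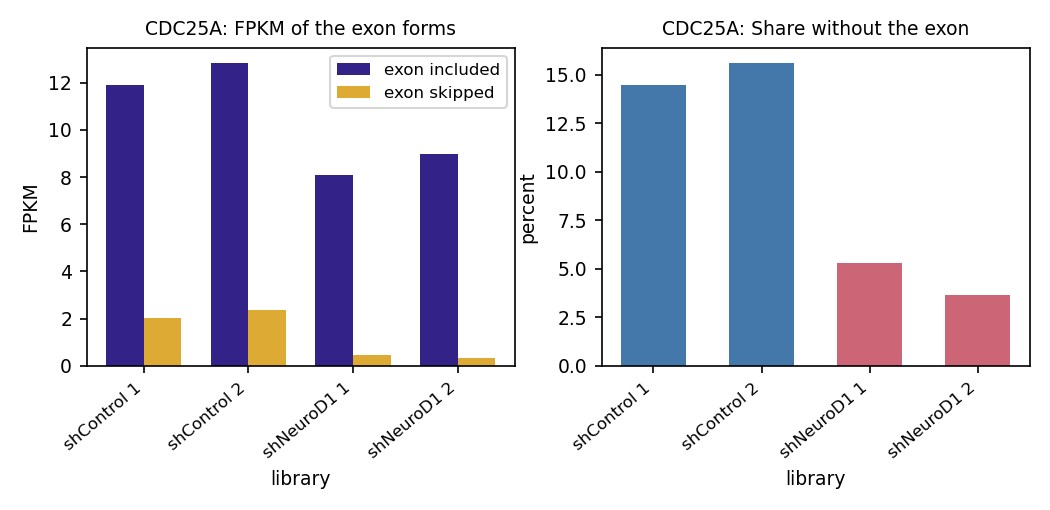
CDC25A transcripts with and without exon 6 in each library, as FPKM (left) and as the percent of both forms that skip the exon (right). Both shControl libraries, at 14.5% and 15.6%, lie above both shNeuroD1 libraries, at 5.32% and 3.64%.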

How the data were processed

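RNAseq of 4 IMR-32 libraries was analysed. Per the submitters' processing notes, cutadapt 1.9.1, HISAT2 2.0.1, HTSeq 0.6.1 and DESeq2 were used on hg38. The authors deposited raw counts per Ensembl gene, and the use of strand in counting was not given in the sources used here. They also deposited FPKM values of transcript starts, ends and splicing events in assembled transcripts, listed only above 0, and the tool is not given in the sources used here.

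Counts were tested in edgeR 4.0.16 (R 4.3.3) with filterByExpr (minimum count 10), TMM and the two-sided quasi-likelihood F test. The SE is the size of the log2 fold change divided by the square root of F. FPKM was summed over the starts of a gene (unlisted as 0, mean of at least 1) and tested in limma 3.58.1 on log2(FPKM + 1), so folds of low genes are understated. The edgeR fit was tested on simulated counts. Alternatives were other scalings and filters, DESeq2 1.42.0, a replicate block, FPKM fits and leaving out each library. Coordinates and exon lengths are those of GENCODE 29 (GRCh38), and promoters those of RefSeq (GRCh38.p14). The genes described and the lists were chosen with earlier results of these data known. All 10 genes are named, and from each list up to 4 with the largest change among those called with a mean of at least 5 CPM. CDKN1A, SKP1, CUL1, overlapping genes and markers are named besides. Single values of 2 listed genes are not reported here.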

Additional observations from a re-analysis of the deposited data

How the results depend on the processing

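By counts, the 8 falls kept their direction and passed under DESeq2 size factors, library size alone, no filter, a mean of at least 1 CPM, DESeq2, the replicate block and each library left out, where the lone library of a group was assumed to vary like the others. With 1 library left out, log2 fold changes were -0.49 to -0.44 for CCND1, -0.83 to -0.81 for CDK4 and -0.32 to -0.16 for CDK6. CCNE1 was at -0.72 to -0.65, CCNE2 at -1.32 to -1.08 and CDK2 at -1.35 to -1.25. SKP2 was at -0.89 to -0.84 and CDC25A at -0.97 to -0.85. Without shControl replicate 1 or 2, 2855 or 2828 of all genes were called higher, against 4698. Over the 4 fits that each left out 1 library, CCND3 ran from -0.19 to 0.090 and the median of CDK inhibitors from -0.26 to 0.20, the lowest values lacking shNeuroD1 replicate 2 and the highest lacking replicate 1. The difference in CCND3 over CCND1 ran from 0.26 to 0.55, and the other 4 ratios moved by less than 1.5 times. CCND3 was 0.072 with library size alone, under which 7 pathway genes were higher. That setting moved the median of CDK inhibitors to 0.11 and of SCF-SKP2 genes to 0.014. A mean of 1 CPM moved CDK inhibitors to 0.011. The deviations of libraries with the same number had a correlation of 0.0158, so the numbers were not taken as pairs, and with the replicate block 8 genes were lower.

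A log2 fold change beyond 1 left 2 of the genes lower, with 23 pathway genes lower and 0 higher. Of all genes tested, 5.14% were lower and 8.79% higher at this threshold. FPKM fits are given in the order pseudocount 1, pseudocount 0.1, no filter, and the larger of starts and ends (chosen after seeing the data). They called 3, 0, 0 and 3 of the genes lower, 10, 6, 5 and 14 pathway genes lower, and 1, 1, 0 and 1 higher. All genes called lower were 245, 120, 113 and 337, and higher 243, 119, 107 and 329. Reversed were CCND1 (0.18 in all 4), CCND3 (0.091, 0.10, 0.091 and 0.091), CDC25A (0.46, 0.39 and 0.46, then -0.67) and the median of CDK inhibitors (0.039, 0.041, 0.00046 and 0.039). No longer passing were CDK4 (-0.94, -0.95, -0.94 and -1.05), CCNE1 (-0.038, -0.054, -0.038 and -0.038), CCNE2 in the first 3 (-1.11, -1.46 and -1.11), CDK2 in the last 3 (-1.66, -1.60 and -1.11), CDK6 (-1.46 and -1.39) and SKP2 (-0.96 and -0.94) in the fits with pseudocount 0.1 and with no filter. By FPKM, CCND3 over CCND1 was -0.083 and CDK6 over CDK4 -0.51. Shares in shControl and shNeuroD1 were 88.3% and 88.8% for CCND1, 79.4% and 84.7% for CDK4, and 32.2% and 56.5% for CCNE1. On 1 strand only, 1 gene held CCAAT. The first 3 FPKM values of CDC25A rest on 1 start of 33 bases. It was at 1.10 and 1.02 FPKM in shControl, and at 4.90 and 0.363 in shNeuroD1. The cause of the differences between counts and FPKM was not tested.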
